A study of Homo sapiens with 9 samples.

Results

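Mitochondrial ribosomal protein genes were followed across 3 treatments of Raji cells, a human Burkitt lymphoma line of B-cell origin. The members are the genes of the deposited table whose symbol starts with MRPL or MRPS followed by a digit. Of 87 such symbols, 6 pseudogenes and 3 antisense or divergent transcripts were left out. This gave 78 members of 15436 listed genes, 29 with an MRPS symbol (small subunit) and 49 with an MRPL symbol (large subunit). The groups were cells given hydroxyurea (HU), cells given thymidine and nocodazole (Thy-Noc), and cells given the solvent DMSO, with 3 libraries in each group. HU blocks ribonucleotide reductase, the enzyme that makes deoxynucleotides. A surplus of thymidine slows replication, and nocodazole disrupts microtubules so that cells stop in mitosis. The labels used here state neither dose nor time. All libraries came from a single cell line, and the labels do not say that replicates were separate cultures. The p-values set the difference between groups against the spread of these samples within groups, and that spread may be technical.

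The mitochondrial ribosome translates the few messages of the mitochondrial genome, all of them for membrane proteins of the respiratory chain and ATP synthase. Its RNAs are made in the mitochondrion, while its proteins are encoded in the nucleus, made in the cytosol and imported. Many of these proteins descend from bacterial ribosomal proteins, and the mammalian particle also holds many that bacteria lack. Symbols do not always match the place of a protein in the particle: the products of MRPS30 and MRPS18A sit in the large subunit, and that of MRPS36 is better known as a component of the 2-oxoglutarate dehydrogenase complex.

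Summed counts ran from 74940755 to 110485145 per library. The B-cell markers MS4A1, CD79A, CD79B, PAX5 and CD74 were all listed, with values between 13.05 and 1012 CPM, a count scaled to the size of its library. Of 8 markers of other cell types, LYZ reached at most 0.924 CPM and COL1A1 at most 13.7 CPM, and the other 6 were not among the listed genes. COL1A1 had 9.02, 8.09 and 13.7 CPM in HU cells, 1.97, 5.19 and 3.15 CPM in Thy-Noc cells, and 3.88, 1.30 and 2.66 CPM in DMSO cells. LYZ had 0.924, 0.661 and 0.658 CPM in HU cells, 0.273, 0.234 and 0.331 CPM in Thy-Noc cells, and 0.380, 0.411 and 0.216 CPM in DMSO cells. Both were thus higher in the HU libraries than in all others, and their part in the HU results was not tested.

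Most members were well expressed. The mean CPM per member ran from 0.636 to 424.9 with a median of 44.31, against a median of 16.85 over all tested genes. The test took genes with at least 1 CPM in at least 3 libraries, which kept 76 of the 78 members and 11346 genes in all. The members not tested were MRPL46, with 0.316, 0.324 and 0.782 CPM in HU cells, 0.546, 1.22 and 0.342 CPM in Thy-Noc cells, and 0.900, 0.821 and 0.941 CPM in DMSO cells, and MRPS18C, at 0.220 to 1.43 CPM in the 9 libraries. Scaled by the median length of each gene's coding transcripts, the median level was 38.64 CPM per kb over small subunit members and 48.81 CPM per kb over large subunit members. The highest levels on that scale were those of MRPL51 (440.1 CPM per kb), MRPS27 (333.0), MRPL3 (307.2), MRPL20 (300.3) and MRPS15 (287.7). The lowest were those of MRPL46 (0.681 CPM per kb), MRPS18C (0.955), MRPS35 (1.26), MRPL18 (2.35) and MRPL30 (3.17). The members lie on 21 chromosomes. Another annotated gene overlaps 49 of them, a coding gene overlaps 38, and 34 have a named pseudogene. The sources used here do not say how reads in such places were assigned.

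In HU cells most mitochondrial ribosomal protein genes had lower values than in DMSO cells. The fitted log2 fold change was negative for 59 of 76 tested members (77.6%), against 48.7% of all tested genes, and its median was -0.31, against 0.02 over all tested genes. For 37 members (48.7%) every HU library lay below every DMSO library, and 15.3% of all tested genes did so. For 2 members, MRPS30 and MRPS36, every HU library lay above every DMSO library, where 15.5% of all tested genes did so. With edgeR's quasi-likelihood test and Benjamini-Hochberg adjustment over all tested genes, 6 members fell and 0 rose at an adjusted p under 0.05, which is 7.89% of the tested members, beside 3.56% of all tested genes called in either direction 1.56% called lower and 2% called higher. At an unadjusted p under 0.05 the counts were 25 lower and 1 higher of 76, beside 10.1% of all tested genes lower and 11.1% higher.

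In bulk RNA, fewer cells of a type and less RNA per cell cannot be told apart. The number of calls rests on the fit. DESeq2 called 21 members lower and 1 higher, beside 9.66% of genes with an adjusted p lower and 9.87% higher. On log2(CPM + 0.5), limma called 10 lower and 0 higher, beside 2.19% of genes lower and 2.77% higher, while edgeR on only the 6 libraries compared called 0. Without any 1 of the 3 DMSO libraries, or without HU library 1 or 3, edgeR called 0 members, without HU library 2 or Thy-Noc library 1 or 3 it called 1, and without Thy-Noc library 2 it called 3. The median log2 fold change of members stayed between -0.33 and -0.23 under the alternatives run.

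**Figure D1:**
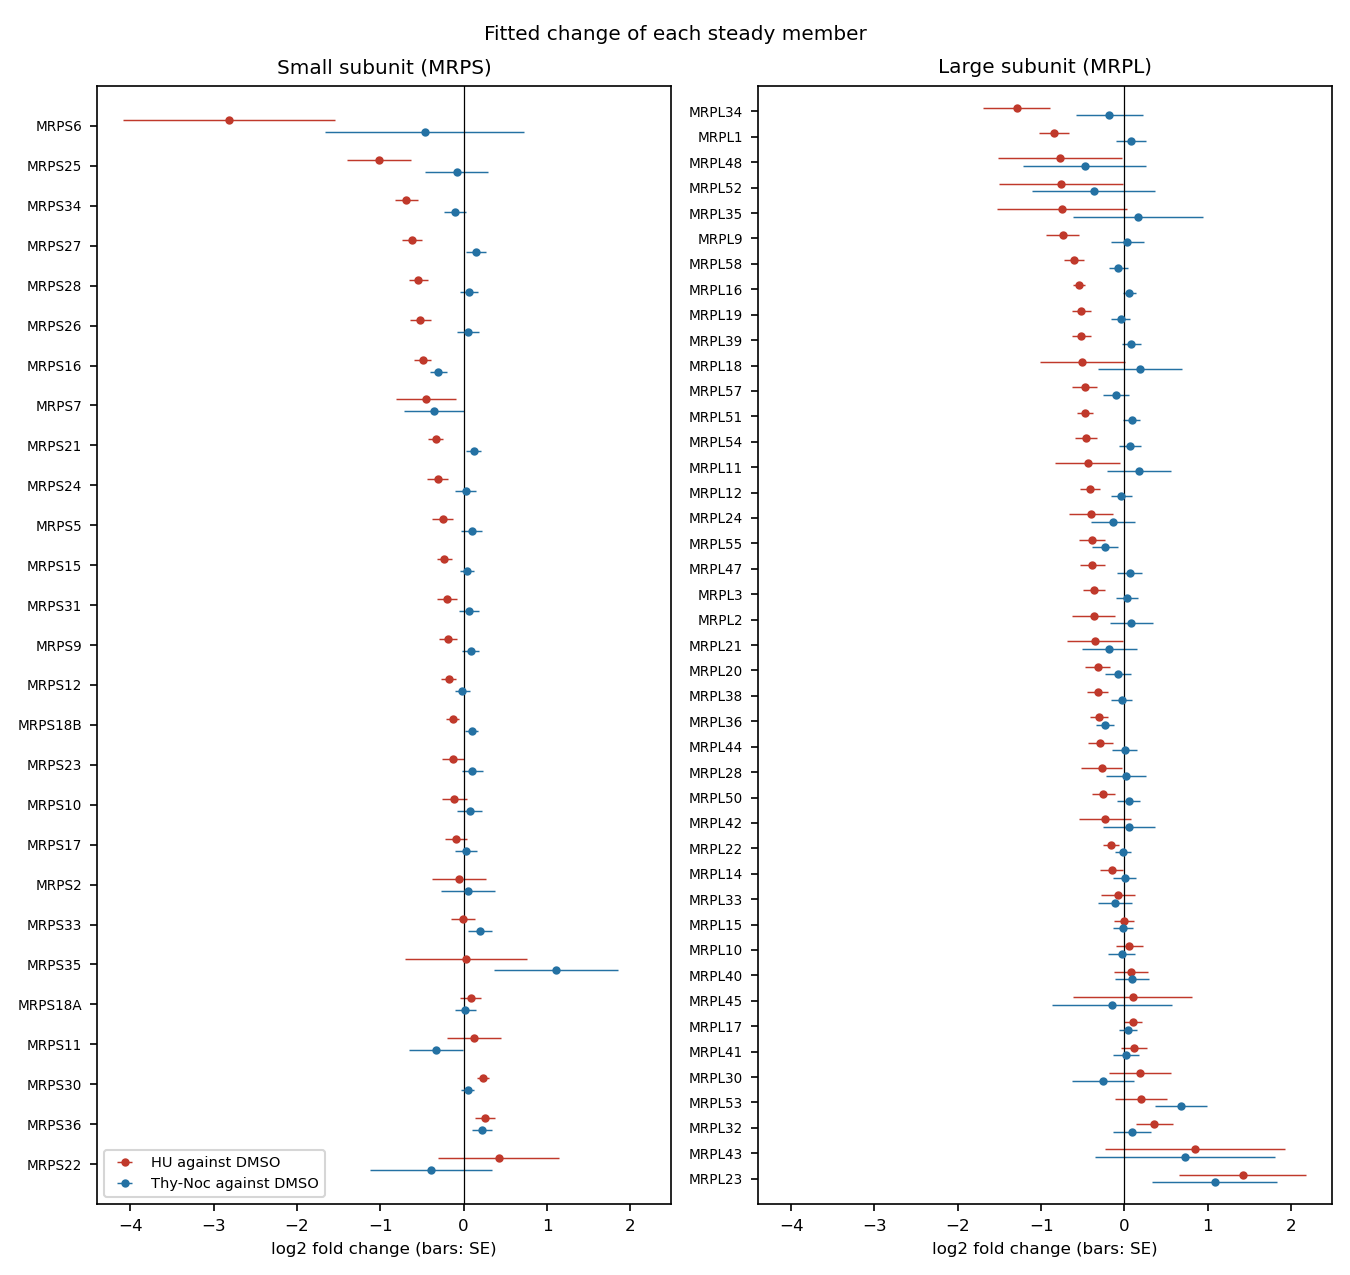
Fitted log2 fold change of each of the 70 tested members whose libraries of a group stayed within 10-fold of each other after 0.5 CPM was added, in HU (red) and Thy-Noc (blue) cells against DMSO cells, with bars of 1 standard error. Small subunit symbols are on the left and large subunit symbols on the right, and most red points lie left of 0, where the median of these members was -0.30 for HU and 0.03 for Thy-Noc.

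Of the large subunit members, MRPL16, the counterpart of bacterial L16, had the lowest p in HU against DMSO cells. MRPL16 (ENSG00000166902, chr11:59806135-59810872, minus strand, GENCODE 29 on GRCh38) had 100.7, 105.6 and 110.5 CPM in HU cells, 152.5, 163.5 and 166.0 CPM in Thy-Noc cells, and 153.6, 150.6 and 158.2 CPM in DMSO cells. All 3 HU libraries were low, by a gap far wider than the spread within any group, and the Thy-Noc and DMSO libraries overlapped. MRPL16 fell by 0.55 ± 0.08 (SE) on the log2 scale in HU against DMSO cells, to 0.685 of the DMSO level (edgeR adjusted p = 0.0225, n = 3 each).

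MRPL51, a protein that bacteria lack, had 174.6, 171.7 and 166.6 CPM in HU cells, 258.4, 225.1 and 274.1 CPM in Thy-Noc cells, and 221.6, 251.7 and 241.0 CPM in DMSO cells. The HU libraries were again all below the others, and they lay closer together. MRPL51 (ENSG00000111639, chr12:6491886-6493841, minus strand) fell by 0.48 ± 0.10 (SE) on the log2 scale against DMSO cells (edgeR adjusted p = 0.0466, n = 3 each). NCAPD2, a condensin subunit gene, overlaps it on the opposite strand.

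MRPL58, also known as ICT1, is a peptidyl-tRNA hydrolase built into the large subunit that can release peptides from stalled ribosomes. It had 36.28, 37.11 and 35.42 CPM in HU cells, 57.09, 45.78 and 55.09 CPM in Thy-Noc cells, and 59.65, 53.98 and 52.36 CPM in DMSO cells. The lowest Thy-Noc and DMSO libraries were still above every HU library. MRPL58 (ENSG00000167862, chr17:75012670-75021261, plus strand) fell by 0.61 ± 0.12 (SE) on the log2 scale against DMSO cells (edgeR adjusted p = 0.0439, n = 3 each).

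The 250 bases before the MRPL58 start (chr17:75012420-75012669, plus strand, RefSeq, GRCh38.p14) are shown because MRPL58 fell and no annotated UTR crosses this window. Capitals mark the core letters CCGGAAG of ETS-family sites, the family of GABPA, which reads CTTCCGG on the other strand.
MRPL58: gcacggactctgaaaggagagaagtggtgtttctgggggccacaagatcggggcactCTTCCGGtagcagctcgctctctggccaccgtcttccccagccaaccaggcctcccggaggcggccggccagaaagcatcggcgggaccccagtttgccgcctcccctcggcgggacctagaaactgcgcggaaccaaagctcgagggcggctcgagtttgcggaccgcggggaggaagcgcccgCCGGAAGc
This window held the core 2 times, once on each strand. It was 1 of 6 windows looked at. Those of MRPL51 and MRPS34 held the core 2 and 3 times, and those of MRPL16, MRPS27 and MRPS30 held it 0 times. Over both strands of the same 250-base window, the core was found in 23 of 69 members with a promoter in the RefSeq table (33.3%), in 17.7% of the tested genes' promoters and in 8.82% of all promoters in the table. It was found in 11 of the 35 members whose HU libraries all lay below the DMSO libraries and in 12 of the 34 others, so it was about as common in both. These core letters were chosen after the windows had been read. The longer ETS form CCGGAAGT, which contains them, was found in 13.0% of members, 8.04% of tested genes and 3.64% of all promoters. The shorter NRF1 letters GCATGCG were found in 10.1% of members, 6.3% of tested genes and 3.57% of all promoters, and the E-box CACGTG in 8.7%, 9.19% and 6.49%. The full consensus of NRF1, which contains GCATGCG, was found in 1.45%, 2.14% and 1.13%, that of YY1 in 4.35%, 0.658% and 0.359%, and that of ZBTB33 in 1.45%, 0.959% and 0.41%. A match is a run of letters and not a shown site.

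Small subunit members were led in level by MRPS27, a pentatricopeptide repeat protein, the most abundant member by CPM. It had 307.4, 331.0 and 263.4 CPM in HU cells, 460.5, 494.5 and 581.4 CPM in Thy-Noc cells, and 450.8, 479.3 and 455.8 CPM in DMSO cells. Every HU library was below every library of the other groups, which overlapped. MRPS27 (ENSG00000113048, chr5:72219409-72320646, minus strand) fell by 0.62 ± 0.12 (SE) on the log2 scale against DMSO cells (edgeR adjusted p = 0.0432, n = 3 each), and PTCD2 overlaps it on the opposite strand.

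MRPS34, a small subunit protein that bacteria lack, had 18.56, 21.03 and 22.72 CPM in HU cells, 33.58, 29.94 and 29.75 CPM in Thy-Noc cells, and 30.25, 35.17 and 34.93 CPM in DMSO cells. The HU libraries formed a low group apart from the rest. MRPS34 (ENSG00000074071, chr16:1771890-1773155, minus strand) fell by 0.69 ± 0.13 (SE) on the log2 scale against DMSO cells (edgeR adjusted p = 0.0432, n = 3 each).

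MRPS28, a further small subunit protein, had 101.1, 82.72 and 101.3 CPM in HU cells, 142.6, 138.5 and 153.9 CPM in Thy-Noc cells, and 140.9, 145.6 and 128.7 CPM in DMSO cells. It fell by 0.54 ± 0.11 (SE) on the log2 scale against DMSO cells (edgeR adjusted p = 0.0466, n = 3 each), and an annotated gene overlaps it on the same strand. Across the fits that each left out 1 library, MRPL16 kept its call in 4 of 9 (adjusted p from 0.0343 to 0.0853), MRPL51 and MRPL58 in 1 of 9 each (0.0467 to 0.153 and 0.0467 to 0.134), and MRPS27, MRPS34 and MRPS28 in 0 of 9, with lowest adjusted p of 0.0511, 0.0553 and 0.0684.

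**Figure D2:**
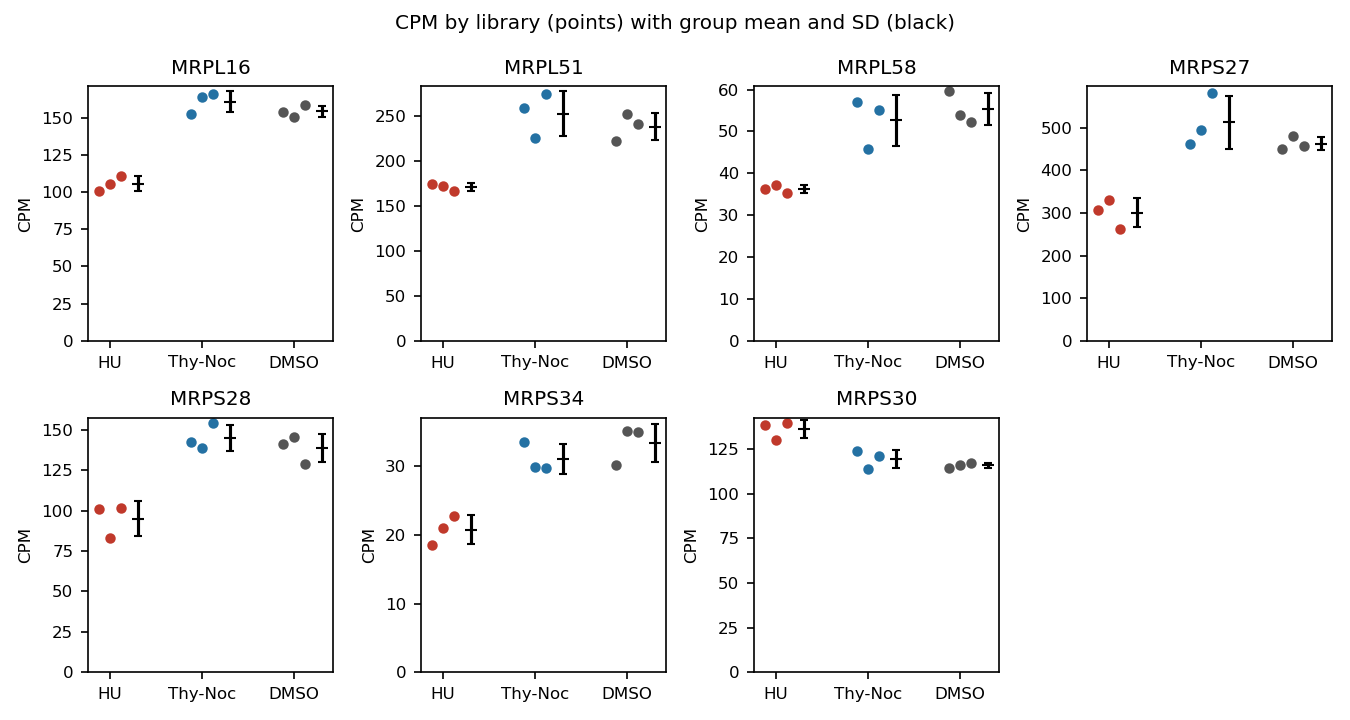
CPM of the 6 members called lower in HU cells and of MRPS30 in each library, by group (HU, Thy-Noc, DMSO), with the group mean and SD in black, n = 3 each and each axis starting at 0. In the 6 called members the HU points lie below all others, while in MRPS30 they lie above, at 130.2 to 139.6 CPM.

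MRPS30 went the other way. It had 138.3, 130.2 and 139.6 CPM in HU cells, 123.5, 113.7 and 121.2 CPM in Thy-Noc cells, and 114.0, 116.0 and 117.1 CPM in DMSO cells, so that all HU libraries were higher than the rest. Its log2 fold change against DMSO cells was 0.23 ± 0.07 (SE), with an edgeR adjusted p of 0.130, and it was the member that DESeq2 called higher. MRPS36 had 34.25, 38.25 and 32.9 CPM in HU cells, 32.47, 32.45 and 37.65 CPM in Thy-Noc cells, and 31.05, 28.62 and 28.56 CPM in DMSO cells. Its HU and Thy-Noc libraries were all above the DMSO libraries, with log2 fold changes of 0.26 ± 0.12 (SE) and 0.22 ± 0.12 (SE) that did not pass the edgeR test (adjusted p = 0.281 and 0.9998, n = 3 each). MRPS18A, the other MRPS symbol of a large subunit protein, had a log2 fold change of 0.08 ± 0.13 (SE) in HU against DMSO cells, with overlapping groups.

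Other members fell short of the threshold by little. MRPS16, the counterpart of bacterial S16, had 91.92, 95.24 and 102.5 CPM in HU cells, 102.2, 102.9 and 123.6 CPM in Thy-Noc cells, and 136.4, 139.7 and 130.4 CPM in DMSO cells. Its HU and Thy-Noc libraries overlapped, and all of them lay below the DMSO libraries. The MRPS16 log2 fold change in HU against DMSO cells was -0.49 ± 0.10 (SE; edgeR adjusted p = 0.0510, n = 3 each). MRPL1, the counterpart of the L1 stalk protein, had 16.99, 13.33 and 20.16 CPM in HU cells, 33.28, 28.02 and 34.21 CPM in Thy-Noc cells, and 29.69, 32.22 and 28.61 CPM in DMSO cells, all HU libraries being low. Its log2 fold change in HU against DMSO cells was -0.84 ± 0.18 (SE; edgeR adjusted p = 0.0522, n = 3 each). MRPL19 and MRPL39 had log2 fold changes of -0.52 ± 0.11 (SE) and -0.52 ± 0.12 (SE), with edgeR adjusted p of 0.0532 and 0.0599. These cases lie just outside the threshold and MRPL51 and MRPS28, at 0.0466, just inside it.

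Several members with more negative fitted values had a wider spread within groups. MRPS6, the counterpart of bacterial S6, had 1.16, 1.21 and 2.21 CPM in HU cells, 1.79, 18.7 and 2.83 CPM in Thy-Noc cells, and 2.90, 27.0 and 2.34 CPM in DMSO cells. One Thy-Noc and one DMSO library stood far above the rest of their group, and its log2 fold change of -2.81 ± 1.27 (SE) in HU against DMSO cells was not called (edgeR adjusted p = 0.263, n = 3 each) and was -0.77 without DMSO library 2. MRPL34 had 23.33, 29.1 and 12.31 CPM in HU cells, 56.9, 30.77 and 52.27 CPM in Thy-Noc cells, and 62.49, 61.88 and 34.4 CPM in DMSO cells, with a log2 fold change of -1.29 ± 0.41 (SE; edgeR adjusted p = 0.128, n = 3 each). MRPS25 and MRPL48 had values of -1.02 ± 0.38 (SE) and -0.78 ± 0.74 (SE) with overlapping groups. At the other end, again leaving aside unsteady members, MRPL23 (1.42 ± 0.76), MRPL43 (0.85 ± 1.08), MRPS22 (0.42 ± 0.73) and MRPL32 (0.36 ± 0.22) had the highest log2 fold changes (± SE), each with overlapping groups and none past the test. The MRPL23 value was 0.094 without HU library 2, the MRPL43 value 3.08 without DMSO library 2 and 0.37 without DMSO library 3, and the MRPS22 value -0.036 without DMSO library 1 and 1.11 without DMSO library 2.

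MRPS12, which lies at the decoding centre, and MRPL12, which also binds the mitochondrial RNA polymerase, had log2 fold changes of -0.18 ± 0.09 (SE) and -0.41 ± 0.13 (SE) in HU against DMSO cells. For both, all HU libraries lay below the DMSO libraries, and neither passed the edgeR test (adjusted p = 0.316 and 0.120, n = 3 each). MRPL12 had 72.88, 89.32 and 74.62 CPM in HU cells, 89.41, 104.0 and 114.1 CPM in Thy-Noc cells, and 103.2, 109.7 and 102.4 CPM in DMSO cells.

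Small and large subunit members were set side by side in HU against DMSO cells. Among 28 tested small subunit members, 3 fell and 0 rose, 22 had a negative log2 fold change, and the median was -0.19. Among 48 tested large subunit members, 3 fell and 0 rose, 37 were negative, and the median was -0.37. The means were in the other order, at -0.35 for small and -0.31 for large subunit members. So was the share called lower, 10.7% of small and 6.25% of large subunit members, beside 1.56% of all tested genes. Every HU library lay below every DMSO library for 53.6% and 45.8%, beside 15.3% of all tested genes. The small minus large difference of medians was 0.17 on the log2 scale, and 0.13 when MRPS30 and MRPS18A were counted with the large subunit and MRPS36 with neither. Per library, over the 70 members that stayed within 10-fold in each group after 0.5 CPM was added, this difference was -0.02, 0.16 and 0.14 in HU cells, 0.02, 0.05 and 0.02 in Thy-Noc cells, and -0.02, 0.00 and 0.06 in DMSO cells. HU libraries 2 and 3 were above the DMSO libraries and HU library 1 lay among them, so the groups overlapped. The difference between subunits was not tested.

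The 70 members summed to 4716, 5204 and 5010 CPM in HU cells, 6020, 5760 and 6608 CPM in Thy-Noc cells, and 5994, 6480 and 5797 CPM in DMSO cells. All HU sums were below all others, while Thy-Noc and DMSO sums overlapped. The ratio of the small to the large subunit sum was 0.701, 0.658 and 0.687 in HU cells, 0.644, 0.671 and 0.701 in Thy-Noc cells, and 0.641, 0.664 and 0.677 in DMSO cells, with overlap between all groups. The median member, as log2 of its CPM over its DMSO mean, stood at -0.27, -0.24 and -0.24 in the HU libraries, at 0.01, -0.03 and 0.12 in the Thy-Noc libraries, and at 0.00, 0.04 and -0.06 in the DMSO libraries.

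**Figure D3:**
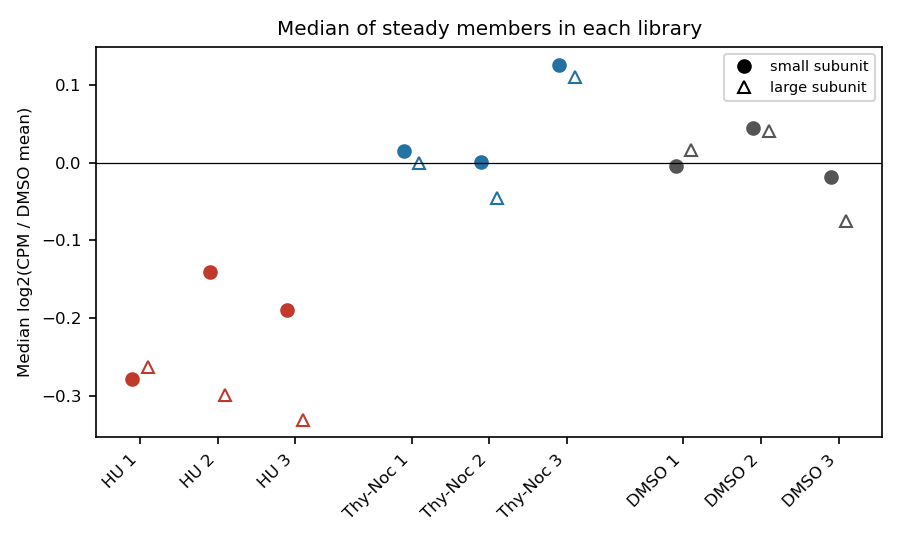
Median over the 27 small subunit (filled circles) and 43 large subunit (open triangles) members of the log2 of CPM over the DMSO mean, in each library of the HU, Thy-Noc and DMSO groups. Both symbols lie between -0.33 and -0.14 in the HU libraries and between -0.07 and 0.13 in the others.

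The members also divide by whether the bacterial ribosome holds a counterpart. Of 43 tested members with a bacterial counterpart, 1 fell (MRPL16), 37 were negative and the median log2 fold change in HU against DMSO cells was -0.34. Of 30 tested members listed as specific to the mitochondrial ribosome, 4 fell (MRPL51, MRPL58, MRPS27 and MRPS34), 20 were negative and the median was -0.24. The shares called lower were 2.33% and 13.3%, beside 1.56% of all tested genes. The shares with a negative value were 86.0% and 66.7%, beside 48.7%. Every HU library lay below every DMSO library for 46.5% of the first list and 50.0% of the second, beside 15.3% of all tested genes. The difference between these lists was not tested, and MRPL55, MRPS28 and MRPS36 were placed in neither.

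In Thy-Noc against DMSO cells no member passed the test. The count was 0 with edgeR, DESeq2 and limma, beside 0.0353%, 1.64% and 0.106% of genes called in either direction, and edgeR called 0.00881% of genes lower and 0.0264% higher. At an unadjusted p under 0.05 edgeR gave 1 lower (MRPS16) and 0 higher, beside 2.04% and 2.45% of all tested genes. The median log2 fold change was 0.02 over members and 0.01 over all tested genes, and 32 of 76 members were negative. Groups did not overlap for 2 members with lower Thy-Noc values, MRPS16 and MRPL36, and for 3 with higher ones, MRPL53, MRPS18B and MRPS36, beside 4.79% and 5.18% of all tested genes. MRPL53 had 20.09, 21.03 and 9.34 CPM in HU cells, 21.79, 25.8 and 23.02 CPM in Thy-Noc cells, and 13.45, 17.57 and 12.96 CPM in DMSO cells, a log2 fold change of 0.68 ± 0.31 (SE) in Thy-Noc against DMSO cells that edgeR did not call. MRPS35 had the highest fitted value, 1.11 ± 0.74 (SE), which rested on 1 Thy-Noc library at 7.74 CPM beside 1.19 and 1.09 CPM, and was -0.44 without it. MRPL23 followed at 1.08 ± 0.75 (SE). At the low end, leaving aside the unsteady members described further on, MRPL48, MRPS6, MRPS22, MRPL52 and MRPS7 had log2 fold changes of -0.48, -0.47, -0.39, -0.37 and -0.36, each smaller than its standard error, and all but that of MRPS7 changed sign when some library was left out.

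In HU against Thy-Noc cells, which share their HU libraries with the comparison to DMSO, 4 members fell and 0 rose by edgeR (5.26%), beside 1.75% of all tested genes in either direction, 1.06% lower and 0.696% higher. MRPL16, MRPL51, MRPS27 and MRPS28 fell by 0.61, 0.56, 0.77 and 0.61 on the log2 scale, with edgeR adjusted p of 0.0236, 0.0421, 0.0383 and 0.0467. MRPL58 and MRPS34 had log2 fold changes of -0.54 and -0.58 with edgeR adjusted p of 0.0728 and 0.0796. The median log2 fold change was -0.29 over members and 0.01 over all tested genes, and 59 of 76 members were negative. For 31 members (40.8%) every HU library was below every Thy-Noc library, beside 12% of all tested genes, and for 2, MRPS30 and MRPS11, every HU library was above, beside 12.9%. DESeq2 called 23 lower and 1 higher, beside 8.47% of genes lower and 8.23% higher, and limma called 7 lower and 0 higher, beside 1.57% and 1.3%. In contrast, edgeR on the 6 libraries alone called 0, and without any 1 of the 9 libraries it called 0 or 1, the 1 being without HU library 2 or Thy-Noc library 1. The small subunit median was -0.25 and the large subunit median -0.30, while the means were -0.35 and -0.30, with 2 called lower in each.

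Of the 76 tested members, 6 were unsteady, meaning that within a group the highest library was at least 10 times the lowest after 0.5 CPM was added. They were MRPL13, MRPL37, MRPS14, MRPL27, MRPL49 and MRPL4, 7.89% of members, beside 16.2% of all tested genes. MRPL37 had 381.7, 419.2 and 0.277 CPM in HU cells, 389.3, 363.9 and 438.6 CPM in Thy-Noc cells, and 369.4, 426.4 and 399.2 CPM in DMSO cells, so that 8 libraries lay close together and 1 HU library near 0. MRPL13 had 0.861, 262.3 and 0.973 CPM in HU cells, 300.6, 1.16 and 297.6 CPM in Thy-Noc cells, and 267.7, 272.2 and 257.1 CPM in DMSO cells, and each value was either above 250 or near 1. MRPS14 had 23.01, 0.0907 and 0.0381 CPM in HU cells, 19.58, 0.0130 and 25.04 CPM in Thy-Noc cells, and 23.07, 23.0 and 19.93 CPM in DMSO cells, again at a high or a very low level with nothing between.

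MRPL27 had low values in each group, with 0.165, 23.78 and 1.14 CPM in HU cells, 31.49, 0.0649 and 40.49 CPM in Thy-Noc cells, and 0.127, 34.45 and 1.96 CPM in DMSO cells. MRPL49 had 26.3, 65.18 and 92.16 CPM in HU cells, 48.63, 61.84 and 0.0621 CPM in Thy-Noc cells, and 0.266, 135.1 and 24.82 CPM in DMSO cells. MRPL4 had 3.999, 19.88 and 26.6 CPM in HU cells, 0.519, 4.84 and 28.73 CPM in Thy-Noc cells, and 43.02, 27.71 and 45.32 CPM in DMSO cells, where all DMSO values were above all HU values. None of the 6 passed the edgeR test in any comparison. By number of annotated transcripts, 1 of 20 members with 1 to 3 (5.0%) was unsteady, 4 of 45 with 4 to 10 (8.89%) and 1 of 11 with over 10 (9.09%), beside 3.99%, 14.8% and 26.3% of all tested genes.

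**Figure D4:**
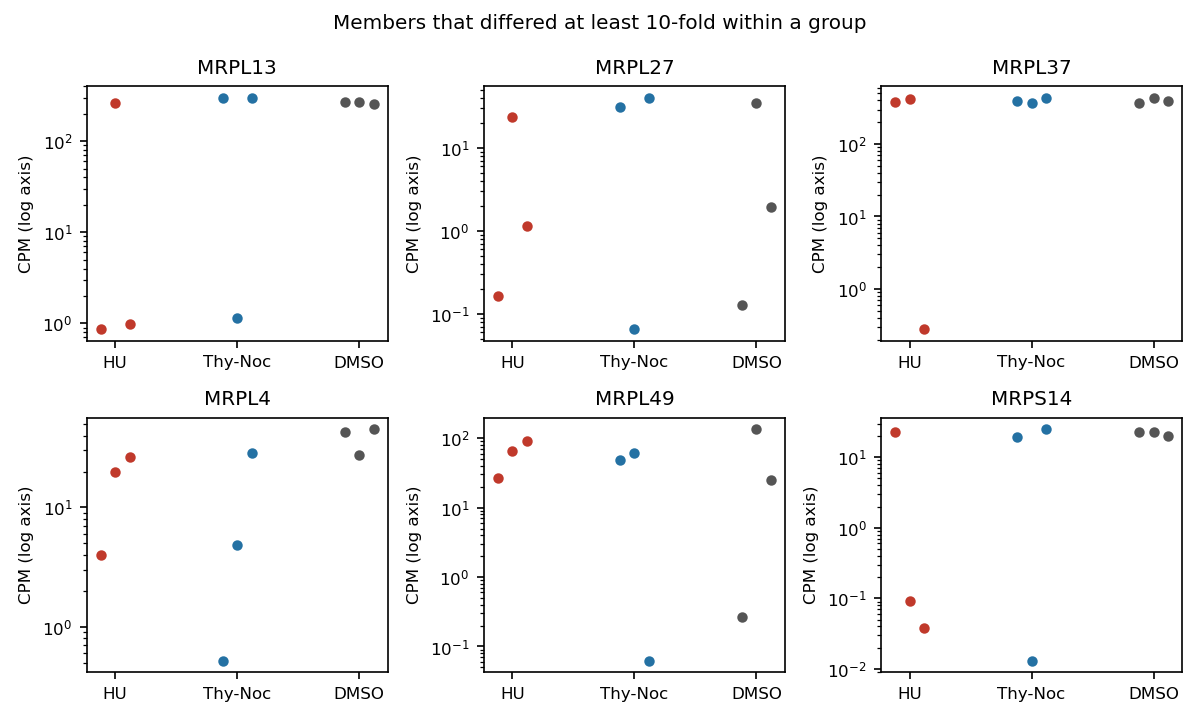
CPM, on a log axis, of the 6 unsteady members in each library by group (HU, Thy-Noc, DMSO). In MRPL13, MRPL37 and MRPS14 the points fall at a high level or at a very low one, such as 262.3 and 0.861 CPM for MRPL13 in HU cells.

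Other parts of mitochondrial translation were described from lists of named genes. Calls in these and the later lists stand beside 1.56% of all tested genes called lower and 2% called higher in HU against DMSO cells. In that comparison, 2 of 25 mitoribosome assembly factors fell and 0 rose. They were MALSU1, which binds the large subunit, with 25.31, 24.23 and 23.66 CPM in HU cells and 37.6, 38.24 and 35.05 CPM in DMSO cells (log2 fold change -0.60 ± 0.11 SE, edgeR adjusted p = 0.0377, n = 3 each), and C1QBP, a mitochondrial matrix protein (-0.47 ± 0.09 SE, adjusted p = 0.0407). The list's median was -0.04. Of 22 mitochondrial aminoacyl-tRNA synthetases, which charge tRNAs, EARS2 and IARS2 fell by 0.62 ± 0.10 (SE) and 0.39 ± 0.08 (SE) on the log2 scale (edgeR adjusted p = 0.0245 and 0.0427, n = 3 each), 0 rose, and the median was -0.22. The unadjusted counts that follow stand beside 10.1% of all tested genes lower and 11.1% higher. Of 15 translation factors 0 were called (4 lower at an unadjusted p under 0.05), with a median of -0.32. Of 18 rRNA modifying and processing enzymes 0 were called (3 lower unadjusted), with a median of -0.18. Of 9 genes of mitochondrial transcription and replication 0 were called (4 lower unadjusted), all 9 were negative and the median was -0.55. Of 5 mitoribosomal proteins under other symbols 0 were called (2 lower unadjusted), with a median of -0.28.

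Further from the mitoribosome, 84 tested genes were listed by symbol as cytosolic ribosomal proteins, with a median log2 fold change of 0.03. Of these, 1 fell (RPL7L1, -0.55 ± 0.11 SE, edgeR adjusted p = 0.0466). It is named for its likeness to RPL7, and no other gene of that list was called. Of 78 nuclear genes of oxidative phosphorylation 0 were called, with a median of -0.04 (9 lower and 3 higher unadjusted). The 13 mitochondrially encoded messages, which the mitoribosome translates, had a median of 0.43. None was called, 12 were positive, and 6 were higher at an unadjusted p under 0.05. For 9 of these messages (69.2%) every HU library was above every DMSO library, beside 15.5% of all tested genes. In Thy-Noc against DMSO cells their median was 0.34 with 13 of 13 positive, but 0 had an unadjusted p under 0.05 and the groups overlapped for all. The cytosolic list had a median of 0.13 with 63 of 84 positive, where 48.9% of all tested genes were negative. In it, 5 were higher and 2 lower unadjusted, beside 2.45% and 2.04% of all tested genes. Every Thy-Noc library was above every DMSO library for 24 (28.6%) and below for 4 (4.76%), beside 5.18% and 4.79%. Again 0 were called in each list.

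Among 14 regulators of nuclear genes for mitochondria, 1 rose in HU against DMSO cells (7.14%), beside 2% of all tested genes. TFE3, a transcription factor of lysosomal and energy genes, had 45.96, 61.95 and 55.65 CPM in HU cells, 33.85, 30.77 and 34.61 CPM in Thy-Noc cells, and 34.2, 30.17 and 33.06 CPM in DMSO cells, with a log2 fold change of 0.75 ± 0.14 (SE; edgeR adjusted p = 0.0407, n = 3 each). NRF1, a factor known to drive nuclear genes for mitochondria, had 11.12, 26.63 and 19.49 CPM in HU cells, 39.22, 34.09 and 43.45 CPM in Thy-Noc cells, and 51.86, 35.68 and 33.24 CPM in DMSO cells. All NRF1 values in HU cells were below the others, and the log2 fold change of -1.08 ± 0.33 (SE) against DMSO cells did not pass the edgeR test (adjusted p = 0.124, n = 3 each). ESRRA, a nuclear receptor also known to drive such genes, had 123.8, 122.5 and 94.86 CPM in HU cells, 42.32, 10.05 and 63.46 CPM in Thy-Noc cells, and 48.52, 20.95 and 43.16 CPM in DMSO cells. All ESRRA values in HU cells were above the others, and the log2 fold change of 1.60 ± 0.63 (SE) did not pass the edgeR test (adjusted p = 0.202, n = 3 each). GABPA had 4.37, 2.32 and 11.15 CPM in HU cells, 8.93, 3.92 and 8.46 CPM in Thy-Noc cells, and 7.06, 12.05 and 9.53 CPM in DMSO cells, with overlapping groups. MYC varied within every group, from 14.69 to 119.2 CPM in HU cells, 95.9 to 276.6 CPM in Thy-Noc cells and 44.3 to 428.6 CPM in DMSO cells. Of the 14 regulators, 3 (NRF1, SP1 and PPARGC1B, 21.4%) had every HU library below every DMSO library, beside 15.3% of all tested genes. For 2 (TFE3 and ESRRA, 14.3%) every HU library was above, beside 15.5%. Whether any of these factors acts on the members was not tested.

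Of the transcripts left out by the rule, MRPL20-AS1 had 8.85, 16.64 and 19.58 CPM in HU cells, 11.49, 26.89 and 20.76 CPM in Thy-Noc cells, and 37.88, 31.94 and 25.68 CPM in DMSO cells. Its HU values were all below its DMSO values, and its log2 fold change of -1.08 ± 0.40 (SE) was not called (edgeR adjusted p = 0.180, n = 3 each). MRPL20 itself, with 227.2, 159.9 and 179.9 CPM in HU cells, 213.2, 202.5 and 257.4 CPM in Thy-Noc cells, and 245.4, 243.1 and 220.3 CPM in DMSO cells, had overlapping groups.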

How the data were processed

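Per the labels' protocols, Raji libraries were made with a stranded mRNA kit. FastQC, Trim Galore, STAR, DESeq2 and the build GRCh38 are named in the submitters' processing notes. Counting tool, annotation and strand setting: not given in the sources used here. What the authors deposited is 1 table named as CPM whose values are whole numbers with unequal totals, so they were read to be expected counts, that is, each an estimated count. No value is 0, and 274 genes stand at 1 in all 9 libraries. Identifiers were matched to symbols (15393 of 15436) and to GENCODE 29 (15272).

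In R 4.3.3, edgeR 4.0.16 fitted the 3 groups over all 9 libraries (TMM scaling, quasi-likelihood, 2-sided, Benjamini-Hochberg over 11346 genes, 6 residual degrees of freedom, threshold 0.05). The design allowed for limma if the values were true CPM and for edgeR if they were counts, and edgeR applied. limma 3.58.1 and DESeq2 1.42.0 served as alternatives. DESeq2 gave an adjusted p for 10932 genes. A tested gene had a median count of 1187, so the spread between libraries limits precision. The edgeR fit of HU against DMSO cells was also run on simulated counts with known changes. Those changes were placed only in genes of lower spread, and the filter on low values was not applied. The other steps were not tested in this way.

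Members and gene lists were chosen with earlier results of these data known. Named members are those called, the highest and lowest fold changes of each comparison and levels per kb, the unsteady members and a fixed set (MRPS18A, MRPS30, MRPS36, MRPL12 and MRPS12). MRPS16, MRPL19, MRPL39, MRPL36 and MRPS18B were named after their values were seen. From the other gene lists the rule named called genes, and the regulators other than TFE3 were named outside it. Same-numbered replicates had correlations of deviations of -0.04 to 0.10 and were not treated as pairs. One marker gene looked for is not reported here.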

Additional observations from a re-analysis of the deposited data

How the results depend on the processing

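Most alternatives changed the number of members called in the HU comparisons, and none changed the direction of the medians there. With median-of-ratios size factors the counts stayed at 6 for HU against DMSO cells and 4 for HU against Thy-Noc cells. For HU against DMSO cells, 6 members were called, against 1 with no filter on low values, 10 with a CPM minimum of 5, 22 with DESeq2, 10 with limma at a pseudocount of 0.5 or 1 CPM, 11 without unsteady genes, 0 with only the 6 libraries compared and 0 to 3 leaving out 1 library. For HU against Thy-Noc cells, 4 were called, against 1 with no filter, 7 with a CPM minimum of 5, 24 with DESeq2, 7 with limma at either pseudocount, 12 without unsteady genes, 0 with only the 6 libraries and 0 to 1 leaving out 1 library. With the replicate block, 0 members were called in either comparison; the numbers were not found to pair the samples. For Thy-Noc against DMSO cells, 0 were called under each of the 19 settings.

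The median log2 fold change of members ran from -0.33 to -0.23 for HU against DMSO cells and from -0.32 to -0.25 for HU against Thy-Noc cells, and from -0.01 to 0.07 for Thy-Noc against DMSO cells. Leaving out 1 library, the first ran from -0.32 to -0.23, and the small minus large difference for Thy-Noc against DMSO cells from -0.0061 (without Thy-Noc library 3) to 0.090 (without DMSO library 3). For HU against DMSO cells that difference ran from 0.10 to 0.19 under all settings.

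The MRPL23 log2 fold change, HU against Thy-Noc, was 0.33 and reversed to -0.047 and -0.036 with limma at 0.5 and 1 CPM.
Leaving out 1 library, these log2 fold changes took both signs: MRPS18A from -0.011 to 0.15 (HU against DMSO), MRPS22 from -0.036 to 1.11 (HU against DMSO), MRPL48 from -1.46 to 0.016 (Thy-Noc against DMSO), MRPL52 from -1.42 to 0.14 (Thy-Noc against DMSO), MRPS22 from -0.99 to 0.29 (Thy-Noc against DMSO), MRPS35 from -0.44 to 1.52 (Thy-Noc against DMSO), MRPS6 from -2.21 to 1.57 (Thy-Noc against DMSO), MRPL23 from -0.99 to 0.82 (HU against Thy-Noc), MRPS35 from -1.49 to 0.48 (HU against Thy-Noc).
The cause was not tested. Among values of single genes, called or not, 650 kept their side of the threshold, 110 lost a call, 13 passed the threshold and 13 reversed. Only values called in the main fit could lose a call, and most of the 650 were not called there. In HU against Thy-Noc cells, MRPL16 kept its call in 2 of 9 fits that left out 1 library. MRPL51, MRPS27 and MRPS28 kept theirs in 0 of 9. A fit without 1 library leaves a group of 2.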
